A study of Coccomyxa subellipsoidea C-169 with 6 samples.

Results

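The 3-ketoacyl-CoA synthases described here are 5 genes of the green microalga Coccomyxa subellipsoidea C-169, COCSUDRAFT_48328, COCSUDRAFT_12119, COCSUDRAFT_12451, COCSUDRAFT_18441 and COCSUDRAFT_64433, out of 9409 genes in the deposited abundance table. The table gives them as ‘48328’, ‘12119’, ‘12451’, ‘18441’ and ‘64433’, the numbers that end these RefSeq locus tags, and they were taken by those numbers. The name 3-ketoacyl-CoA synthase was given to them in the study's text, where the first was called a fatty acid elongase. They were listed there as higher under elevated CO2 from the same libraries, so their common direction is not independent evidence. The name itself could not be checked, because the table and the reference used here pair the numbers with no protein sequence or product, and no sequence is printed for the same reason.

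The libraries came from cells of one strain, C-169, grown in Bold's Basal Medium under continuous light after a pre-culture at ambient CO2. CG cells were then supplied with 2% CO2 and AG cells with 0.04% CO2, and both were harvested on day 4. Digital gene expression (DGE) sequencing counted mRNA reads per gene in 3 libraries per group, named CG 1 to CG 3 and AG 1 to AG 3. No transgene or mutation is named in the labels, so CO2 supply is the only labelled difference. The libraries of a group are biological replicates by the study's text, but the labels do not say that each came from a flask of its own, so the p-values measure the spread between these libraries. The depth was 2674507, 2724210 and 3740989 counts in CG 1, CG 2 and CG 3 and 3965553, 3825993 and 4969639 counts in AG 1, AG 2 and AG 3.

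3-Ketoacyl-CoA synthases are the condensing enzymes of fatty acid elongation. In plants they sit in the endoplasmic reticulum and join malonyl-CoA to a long-chain acyl-CoA, after which separate enzymes reduce, dehydrate and again reduce the product, so that each turn lengthens the chain by a pair of carbons. The condensing enzyme limits the rate and sets which chain lengths are made, and in Arabidopsis different paralogues serve different chain lengths and tissues. The very-long-chain products enter sphingolipids, waxes and storage lipids. Elongation is separate from plastid fatty acid synthesis, whose condensing enzymes, the 3-oxoacyl-ACP synthases, act on chains bound to acyl carrier protein, but it draws on malonyl-CoA as that pathway does.

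One CG library stood apart from the others. Across the 8637 genes tested, log2 levels correlated at Pearson's r of 0.989 between CG 2 and CG 3, but at 0.941 and 0.927 between CG 1 and these, while the AG pairs were at 0.988 to 0.990. CG 1 was nearer to AG (0.824 to 0.831) than CG 2 and CG 3 were (0.737 to 0.763). On RPKM the coefficients of CG 1 were 0.814 and 0.787 with CG 2 and CG 3 and 0.818 to 0.832 with the AG libraries. These coefficients are across genes, which are not replicates, and carry no p-value. Results are therefore given with and without CG 1. Levels below are CPM, the counts of a gene divided by the library total and scaled to one size of library, with TMM factors, which correct for library composition. CPM is a share of the library, so the amount of RNA per cell was not measured.

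All 5 listed 3-ketoacyl-CoA synthase genes were higher in CG than in AG. In edgeR's quasi-likelihood test all 5 rose at a Benjamini-Hochberg adjusted p under 0.05, where 27.3% of the 8637 genes tested rose. Each CG library lay above each AG library for all 5 genes, as it did for 31.5% of the genes tested. The median log2 fold change (CG over AG) of the 5 was 1.55, beside -0.0055 for all genes tested. The criteria of the study's text have a less strict form, a log2 fold change over 1 with an adjusted p under 0.05. In the edgeR fit 4 members met that form, all but COCSUDRAFT_12119, as did 15.4% of the genes tested. The study compared mean RPKM instead and, by the less strict form, named all 5 as higher. As mean RPKM, COCSUDRAFT_12119 was at 174 in CG and 84.1 in AG. The strict form asks for an adjusted p under 0.001 in place of 0.05, and by it the study itself named only COCSUDRAFT_48328. In the fits made here the strict form was met in edgeR by 1 member, COCSUDRAFT_48328, and by 7.95% of the genes tested. In DESeq2 it was met by 4 members and 13.7% of the genes.

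These counts moved with the libraries used, and so did the shares over all genes. With CG 1 left out all 5 members met the strict form, beside 15.7% of 8720 genes, and all 5 rose at an adjusted p under 0.05, beside 34.0%. With AG 1, AG 2 or AG 3 left out 0 members met the strict form, beside 1.44%, 1.73% and 1.46% of genes. In the same fits 4, 3 and 3 of the 5 rose at an adjusted p under 0.05, beside 21.6%, 23.1% and 21.0% of genes.

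**Figure D1:**
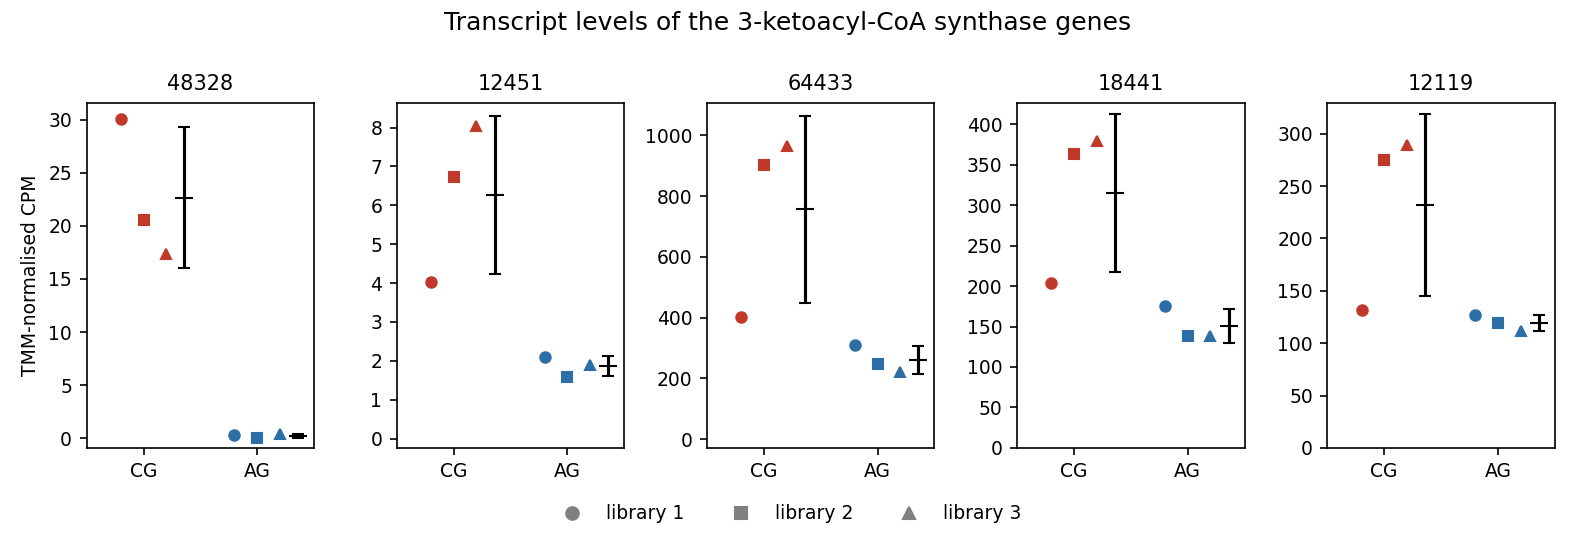
TMM-normalised CPM of each 3-ketoacyl-CoA synthase gene in the 3 CG libraries (red) and the 3 AG libraries (blue), with the mean and SD of each group in black; panels carry the number that ends the locus tag, and their vertical axes differ. All CG points lie above all AG points of the same gene, and CG 1 (circle) is the highest CG library for COCSUDRAFT_48328 and the lowest for the other 4 genes.

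COCSUDRAFT_48328 was nearly absent in AG and present in every CG library. It had 82, 58 and 67 counts in CG 1, CG 2 and CG 3, against 1, 0 and 2 counts in AG 1, AG 2 and AG 3. Scaled for depth this was 30.1, 20.5 and 17.4 CPM in CG and 0.262, 0 and 0.418 CPM in AG, where 0 counts in AG 2 allow a level of up to 0.793 CPM (3 counts). The groups were far apart, although AG holds too few counts for a firm level.

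Summed over libraries, COCSUDRAFT_48328 had 207 counts in CG and 3 in AG, a ratio of 96.3 at equal depth with an exact binomial 95% interval from 32.5 to 471. This and later intervals treat reads as independent draws, so they cover counting error only and not the spread between libraries. Reads were not tagged with molecular identifiers, so copies of one molecule could be counted more than once. The fitted log2 fold change was 6.35 ± 0.50 (SE), with an adjusted p of 0.000104 in the edgeR test, the 18th largest of the 8637 genes tested. With so few AG counts its size varied between fits, at 3.47 in limma on log2(RPKM + 1), 5.91 on log2(RPKM + 0.1), 6.54 in DESeq2 and 5.87 to 7.06 in edgeR with 1 library left out. The adjusted p was under 0.05 in each of the 16 alternative fits, the largest being 0.00161, without AG 1.

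COCSUDRAFT_64433 was the most abundant member by counts and rose nearly 3-fold. It was at 402, 902 and 965 CPM in CG 1, CG 2 and CG 3, against 310.0, 246 and 221 CPM in AG 1, AG 2 and AG 3. CG 1 was closer to the AG libraries than to CG 2 and CG 3. The means were 756 ± 308 CPM in CG and 259 ± 45.9 CPM in AG (SD, n = 3 each). Its log2 fold change was 1.55 ± 0.34 (SE) at an adjusted p of 0.00790 by edgeR, and 1.85 without CG 1 (adjusted p = 6.99e-08). Its call held with each library left out, with an adjusted p of at most 0.0407, without AG 3.

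Genes COCSUDRAFT_18441 and COCSUDRAFT_12119 rose about 2-fold, the smallest changes of the 5. COCSUDRAFT_18441 was at 203, 363 and 379 CPM in CG 1, CG 2 and CG 3, against 175, 138 and 139 CPM in AG 1, AG 2 and AG 3. COCSUDRAFT_12119 was at 132, 275 and 289 CPM in the CG libraries in the same order, against 127, 119 and 112 CPM in the AG libraries. For COCSUDRAFT_12119 the gap between the groups was narrow, since CG 1 exceeded the highest AG library by only a few CPM, while CG 2 and CG 3 stood more than 100 CPM above it.

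The edgeR fit gave COCSUDRAFT_18441 a log2 fold change of 1.06 ± 0.25 (SE) at an adjusted p of 0.0108, and of 1.30 without CG 1. Its call was lost, narrowly, without AG 2 (adjusted p = 0.0509) and without AG 3 (adjusted p = 0.0516). For COCSUDRAFT_12119 the same fit gave 0.96 ± 0.29 (SE) at an adjusted p of 0.0263, and 1.24 without CG 1, with an adjusted p of 2.40e-08. Its call was lost without any other library, at adjusted p of 0.0828 and 0.0741 without CG 2 and CG 3, and of 0.0726, 0.0842 and 0.0943 without AG 1, AG 2 and AG 3. A fit with fewer libraries has less power, but the fit without CG 1 also had fewer, and why the calls were lost was not tested.

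COCSUDRAFT_12451 was the rarest member in CG and rose about 3-fold. It had 11, 19 and 31 counts in CG 1, CG 2 and CG 3 and 8, 6 and 9 counts in AG 1, AG 2 and AG 3. These were 4.04, 6.72 and 8.03 CPM in CG, against 2.10, 1.59 and 1.88 CPM in AG. All CG libraries were above all AG libraries, although single counts weigh heavily at this level. It rose by 1.76 ± 0.33 on the log2 scale (SE, edgeR adjusted p = 0.00407), by 1.98 without CG 1 and by 1.52 without CG 3, and its call held with each library left out, at adjusted p up to 0.0221.

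**Figure D2:**
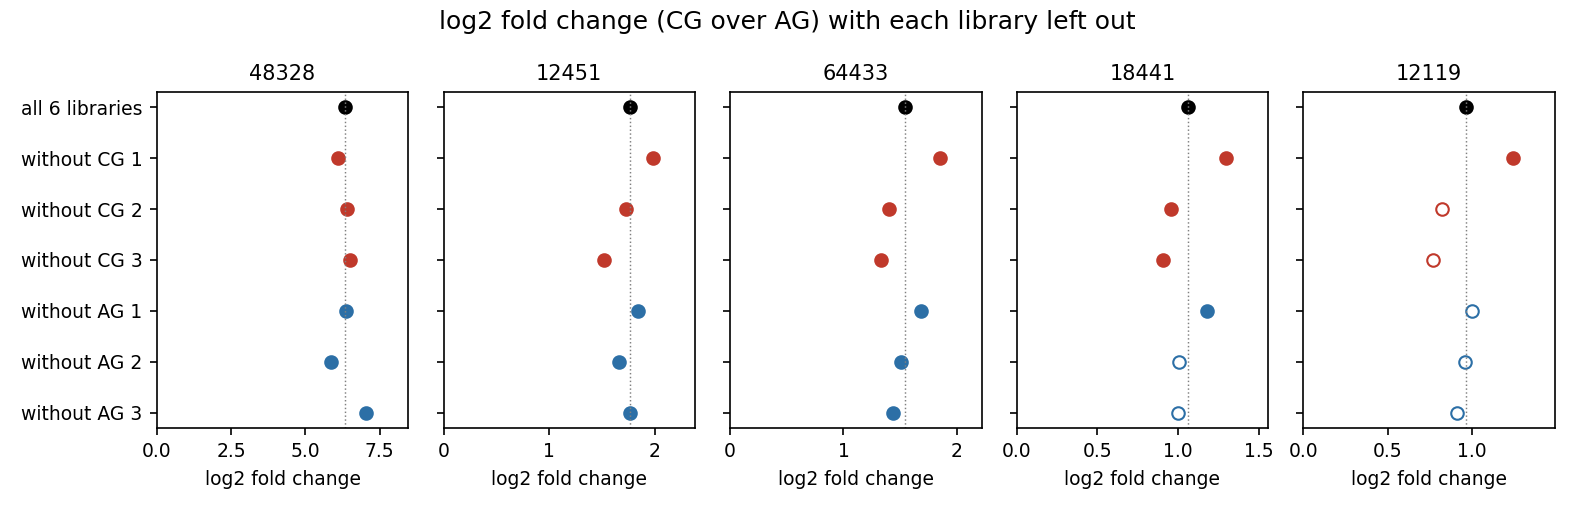
Fitted log2 fold change (CG over AG, horizontal axis) of each gene with all 6 libraries (black) and with one CG library (red) or one AG library (blue) left out; filled points have an adjusted p under 0.05 and open points do not, and horizontal scales differ. All points lie right of 0, from 0.77 for COCSUDRAFT_12119 without CG 3 to 7.06 for COCSUDRAFT_48328 without AG 3, and only COCSUDRAFT_12119 and COCSUDRAFT_18441 have open points.

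Levels between genes were compared as RPKM, which divides by transcript length. The lengths behind these values are 2741 bases for COCSUDRAFT_64433, 2022 for COCSUDRAFT_48328, 1377 for COCSUDRAFT_12119, 1275 for COCSUDRAFT_18441 and 1137 for COCSUDRAFT_12451. In CG the mean level was highest for COCSUDRAFT_64433 (285 ± 118 RPKM), followed by COCSUDRAFT_18441 (255 ± 80.3), COCSUDRAFT_12119 (174 ± 66.1), COCSUDRAFT_48328 (11.5 ± 3.27) and COCSUDRAFT_12451 (5.68 ± 1.88). In AG it was highest for COCSUDRAFT_18441 (115 ± 15.3 RPKM), followed by COCSUDRAFT_64433 (91.7 ± 15.8), COCSUDRAFT_12119 (84.1 ± 5.49), COCSUDRAFT_12451 (1.58 ± 0.198) and COCSUDRAFT_48328 (0.108 ± 0.101), each with its SD over 3 libraries.

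Neighbours in this order were often not separated by their spread. The ranges of mean ± SD of COCSUDRAFT_64433, COCSUDRAFT_18441 and COCSUDRAFT_12119 overlapped in CG, and in AG that of COCSUDRAFT_64433 overlapped those of both the other abundant genes. The ranges of COCSUDRAFT_48328 and COCSUDRAFT_12451 were apart in both groups. Within libraries the order was clearer. The RPKM of COCSUDRAFT_64433 was 0.919, 1.15 and 1.18 times that of COCSUDRAFT_18441 in CG 1, CG 2 and CG 3, against 0.822, 0.828 and 0.742 times in AG 1, AG 2 and AG 3, so COCSUDRAFT_64433 was above COCSUDRAFT_18441 only in CG 2 and CG 3. The RPKM of COCSUDRAFT_48328 was 4.19, 1.72 and 1.22 times that of COCSUDRAFT_12451 in the CG libraries, against 0.0703, 0 and 0.125 times in the AG libraries. The rare pair thus stood in one order in every CG library and in the other in every AG library.

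Among all 9409 genes, 3 of the members are highly expressed and a pair is rare. The mean RPKM of COCSUDRAFT_64433, COCSUDRAFT_18441 and COCSUDRAFT_12119 was above that of 96.0%, 95.2% and 91.8% of genes in CG, and of 82.4%, 86.2% and 80.5% of genes in AG. That of COCSUDRAFT_48328 was above 17.2% of genes in CG and 1.99% in AG, and that of COCSUDRAFT_12451 above 11.0% in CG and 7.63% in AG.

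The sum of the 5 listed genes took a larger share of the mRNA reads in CG. The study listed these genes as higher in the same libraries, so the higher sum follows from that choice and is not independent evidence. Other 3-ketoacyl-CoA synthases of C-169 were not searched for, so the sum does not describe a whole family. Family counts, totals and shares below refer to these 5 genes only. The 5 genes summed to 772, 1567 and 1659 CPM in CG 1, CG 2 and CG 3, against 615, 506 and 474 CPM in AG 1, AG 2 and AG 3. Group means were 1333 ± 488 CPM in CG and 531 ± 74.0 CPM in AG (SD, n = 3 each). The CG libraries did not overlap the AG libraries, with CG 1 the nearest to them. Genes COCSUDRAFT_64433, COCSUDRAFT_18441 and COCSUDRAFT_12119 together made up 95.6 to 98.5% of the family counts in CG and 99.5 to 99.7% in AG, so the sum follows these 3.

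The make-up of the family total was not the same in the CG and AG libraries. Shares of COCSUDRAFT_64433 and COCSUDRAFT_48328 were higher, and those of COCSUDRAFT_12119 and COCSUDRAFT_18441 lower, in every CG library. Of the family counts, COCSUDRAFT_64433 had 52.1, 57.5 and 58.2% in CG 1, CG 2 and CG 3, against 50.4, 48.7 and 46.7% in AG 1, AG 2 and AG 3. COCSUDRAFT_12119 had 17.1, 17.6 and 17.4% in the CG libraries, against 20.6, 23.6 and 23.6% in the AG libraries. Its share was nearly the same in all 3 CG libraries, although its CPM there varied about 2-fold.

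COCSUDRAFT_18441 had 26.4, 23.2 and 22.9% of the family counts in CG 1, CG 2 and CG 3, against 28.5, 27.4 and 29.3% in AG 1, AG 2 and AG 3. Its exact 95% interval in CG 1, 24.5 to 28.3%, overlapped those of all AG libraries, such as 25.4 to 29.4% in AG 2. COCSUDRAFT_48328 had 3.90, 1.31 and 1.05% in the CG libraries, with an exact 95% interval in CG 1 from 3.11 to 4.82%, against 0.0427, 0 and 0.0884% in the AG libraries, where the exact interval of AG 2, with 0 counts, reached 0.193%. CG 1 thus held a share of COCSUDRAFT_48328 about 3 times those of CG 2 and CG 3 or more, and its interval did not overlap theirs. COCSUDRAFT_12451 had 0.429 to 0.523% in CG and 0.314 to 0.398% in AG, and all 6 of its intervals overlapped.

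**Figure D3:**
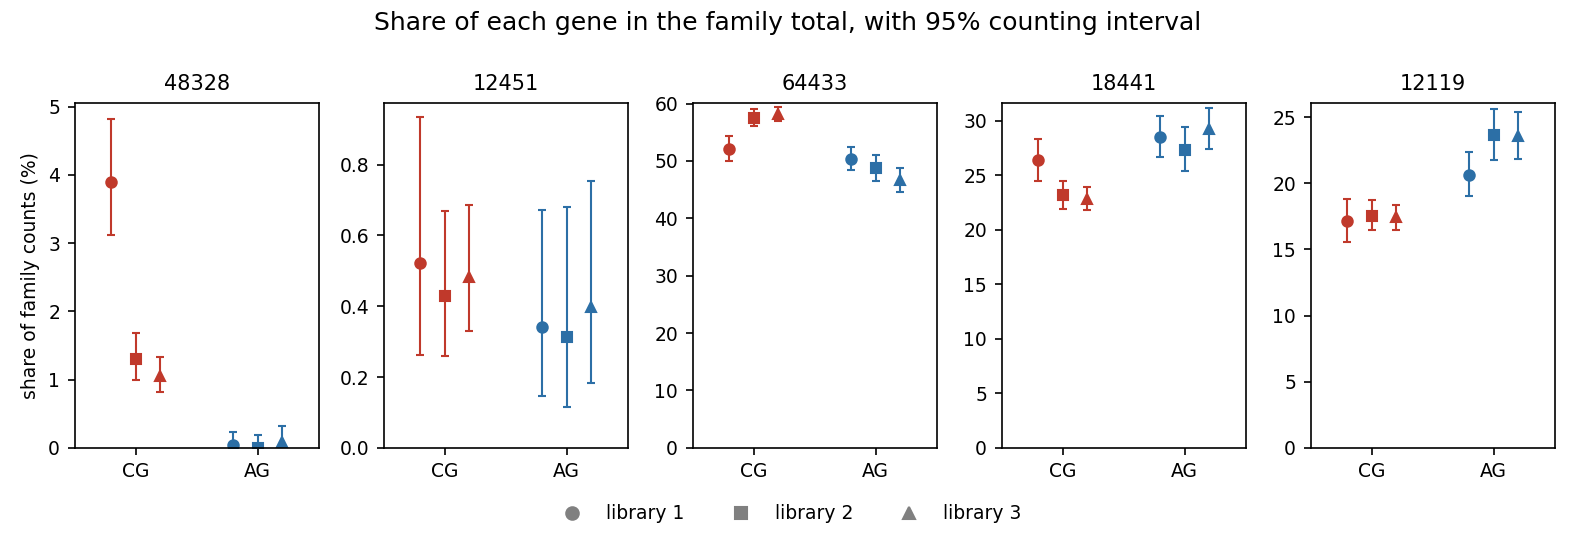
Share of each gene in the summed counts of the 5 genes (vertical axis, percent, scales differ) in the 3 CG libraries (red) and the 3 AG libraries (blue), with exact 95% binomial intervals for counting error. The share of COCSUDRAFT_12119 lies between 17.1 and 17.6% in CG and between 20.6 and 23.6% in AG, and that of COCSUDRAFT_48328 is highest in CG 1, at 3.90%.

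The mean shares differed in CG from AG by 7.33 percentage points for COCSUDRAFT_64433, 2.04 for COCSUDRAFT_48328, 0.128 for COCSUDRAFT_12451, -4.26 for COCSUDRAFT_18441 and -5.24 for COCSUDRAFT_12119. For each of the 5 the CG and AG libraries did not overlap, and the exact two-sided permutation test gave p = 0.10, also after adjustment over the 5, which is the smallest p that 3 libraries against 3 can give. Without CG 1 the difference of COCSUDRAFT_48328 was 1.13 percentage points. The shares sum to 100% and are not independent of each other. On the RPKM scale the differences kept their signs, but those of COCSUDRAFT_18441 overlapped, with 37.9, 34.3 and 34.0% of the family RPKM in CG 1, CG 2 and CG 3 and 39.9, 37.9 and 39.9% in AG 1, AG 2 and AG 3 (exact permutation p = 0.20).

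To ask whether members differed in their response, the log2 ratio of the counts of each of the 10 pairs was compared between groups, with 0.5 added to each count. Such a ratio needs no scaling between libraries. For 8 pairs the CG and AG libraries did not overlap (exact two-sided permutation p = 0.10 each, the smallest possible, and 0.125 adjusted over the 10 pairs). Pairs of other genes were not compared, so whether 8 of 10 is unusual is not known.

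The ratio of COCSUDRAFT_48328 to each other member was higher in CG, by 4.55 on the log2 scale over COCSUDRAFT_12451, 4.75 over COCSUDRAFT_64433, 5.19 over COCSUDRAFT_18441 and 5.33 over COCSUDRAFT_12119. COCSUDRAFT_48328 had 3 counts in AG in all, and on RPKM plus 1 these differences were 1.94 to 2.51. The COCSUDRAFT_64433 to COCSUDRAFT_12119 ratio was 1.60, 1.71 and 1.74 on the log2 scale in CG 1, CG 2 and CG 3, against 1.29, 1.04 and 0.98 in AG 1, AG 2 and AG 3, a mean difference of 0.58. All CG libraries, CG 1 among them, were above the AG libraries in this ratio. The COCSUDRAFT_64433 to COCSUDRAFT_18441 ratio was higher in CG by 0.44, that of COCSUDRAFT_12451 to COCSUDRAFT_12119 by 0.78 and that of COCSUDRAFT_12451 to COCSUDRAFT_18441 by 0.63.

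The remaining pairs overlapped between groups. The COCSUDRAFT_18441 to COCSUDRAFT_12119 ratio averaged 0.47 ± 0.13 in CG and 0.33 ± 0.13 in AG on the log2 scale (SD, n = 3 each, exact permutation p = 0.30). The COCSUDRAFT_12451 to COCSUDRAFT_64433 ratio averaged -6.83 ± 0.23 in CG and -7.03 ± 0.20 in AG (exact permutation p = 0.40). With 3 libraries against 3 the permutation test cannot reach a p under 0.05. Missing that threshold thus does not show that these pairs responded alike. The same limit holds for the pairs without overlap, whose difference is a description.

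The CG libraries differed from each other in opposite ways for COCSUDRAFT_48328 and for the other members. For COCSUDRAFT_12119, COCSUDRAFT_18441, COCSUDRAFT_64433 and COCSUDRAFT_12451 the CG 1 level was the lowest of CG, and for COCSUDRAFT_48328 it was the highest. Positions were taken on log2 CPM with a prior count of 2, which shrinks differences at low counts. CG 1 stood at 11.9% of the way from the AG mean to the mean of CG 2 and CG 3 for COCSUDRAFT_12119. It stood at 33.6% for COCSUDRAFT_18441, 34.8% for COCSUDRAFT_64433, 54.4% for COCSUDRAFT_12451 and 114% for COCSUDRAFT_48328. Over the 2918 tested genes that rose in the fit without CG 1, the median was 73.0%, with quartiles of 41.2 and 99.7%, and 24.9% of them were higher in CG 1 than the mean of CG 2 and CG 3. The position is a description of 1 library, so it carries no test. What sets CG 1 apart was not tested.

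The spread between CG libraries was wide. The coefficient of variation of CPM was 29.2 to 40.8% in CG for the 5 genes, against 6.41 to 17.7% in AG for the 4 genes other than COCSUDRAFT_48328. That of COCSUDRAFT_48328 in AG rests on 3 counts.

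**Figure D4:**
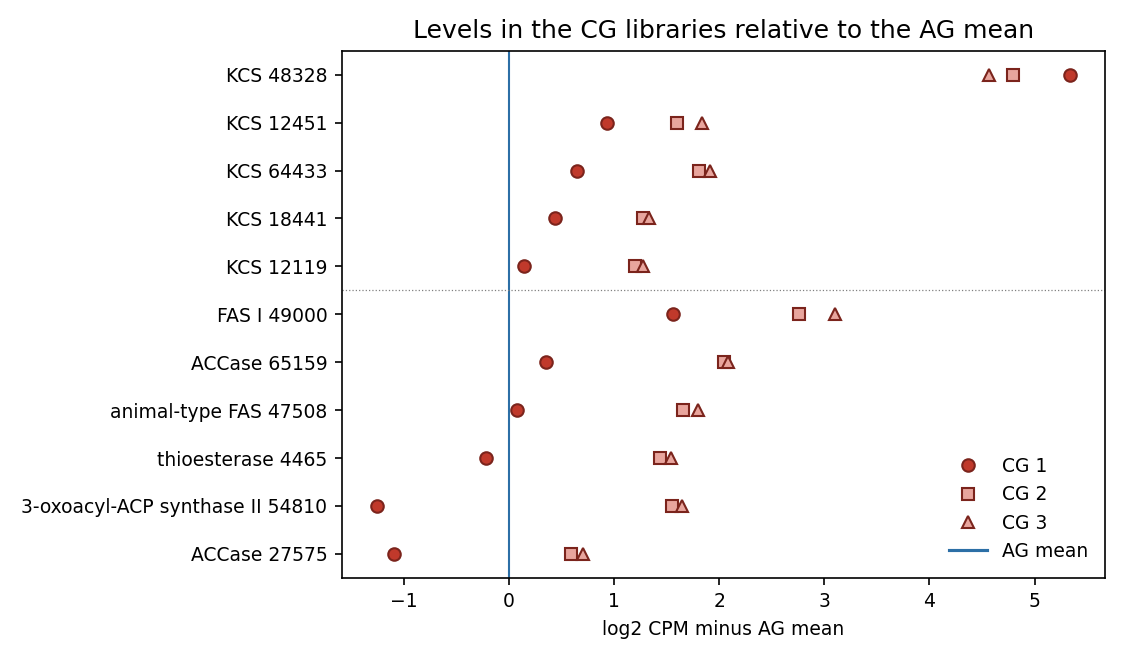
log2 CPM in CG 1 (circle), CG 2 (square) and CG 3 (triangle) minus the mean of the AG libraries (vertical line at 0), for the 5 3-ketoacyl-CoA synthase (KCS) genes above the dotted line and 6 fatty acid synthesis genes below it. CG 1 lies to the right of CG 2 and CG 3 only for COCSUDRAFT_48328 (5.34 against 4.80 and 4.56), and it lies left of 0 for COCSUDRAFT_4465, COCSUDRAFT_54810 and COCSUDRAFT_27575. A prior count of 2 was added, which shrinks differences at low counts, and the fitted log2 fold change of COCSUDRAFT_48328 was 6.35.

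The fatty acid synthesis genes identified in the study's text and primer list act in making acyl chains and malonyl-CoA, which elongation also uses. Whether their products reach elongation was not tested. Some of these genes were picked in the study for their change in these libraries. Of the 6, 3 rose, 0 fell and 3 did not pass in edgeR's quasi-likelihood test, beside 27.3% of all genes tested that rose, and their median log2 fold change was 1.23. Without CG 1 all 6 rose, beside 34.0% of genes, and without AG 1, AG 2 or AG 3 1 of the 6 did, beside 21.6%, 23.1% and 21.0% of genes.

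The members of this list that rose were the fatty acid synthases COCSUDRAFT_49000 and COCSUDRAFT_47508, which build the acyl chain, and an acetyl-CoA carboxylase subunit (COCSUDRAFT_65159), which makes malonyl-CoA. Fatty acid synthase COCSUDRAFT_49000 was at 468, 1074 and 1356 CPM in CG 1, CG 2 and CG 3, against 151, 174 and 149 CPM in AG 1, AG 2 and AG 3, and it rose by 2.61 ± 0.38 on the log2 scale (SE, edgeR adjusted p = 0.00136). Its CG 1 library was also the lowest of CG, but above AG, as for 4 of the 3-ketoacyl-CoA synthases. COCSUDRAFT_65159 was at 141, 457 and 470.3 CPM in the CG libraries, against 104, 115 and 113 CPM in the AG libraries (log2 fold change 1.69, edgeR adjusted p = 0.0134, and 0.0527 to 0.0564 without AG 1, AG 2 or AG 3).

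For the synthase COCSUDRAFT_47508 the groups overlapped, at 558, 1671 and 1842 CPM in CG 1, CG 2 and CG 3 and 509, 656 and 446 CPM in AG 1, AG 2 and AG 3. Its log2 fold change was 1.34 (edgeR adjusted p = 0.0361), and its call was lost without each library other than CG 1, at adjusted p of 0.0730 to 0.124, and in limma on RPKM, at 0.0527 to 0.0590. The acyl-ACP thioesterase COCSUDRAFT_4465, which releases finished chains, the 3-oxoacyl-ACP synthase COCSUDRAFT_54810 and the acetyl-CoA carboxylase COCSUDRAFT_27575 had log2 fold changes of 1.12, 1.11 and 0.26 (edgeR adjusted p of 0.0566, 0.18 and 0.627). COCSUDRAFT_4465 passed with upper-quartile scaling (adjusted p = 0.0483) and in DESeq2 (adjusted p = 0.0236). In all 3 of these genes CG 1 was below every AG library, as for none of the 3-ketoacyl-CoA synthases. By quantitative RT-PCR, the study reported COCSUDRAFT_4465 and COCSUDRAFT_54810 as significantly higher in CG on the harvest day of these libraries and later. It reported the same for COCSUDRAFT_65159 and COCSUDRAFT_49000. Missing the threshold here thus does not show that COCSUDRAFT_4465 and COCSUDRAFT_54810 were unchanged.

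The profiles of 4 members were nearer to each other than to that of COCSUDRAFT_48328. Likeness was measured as the root mean square difference between log2 CPM profiles over the 6 libraries, each centred on its own mean, with lower values for more alike genes. Between COCSUDRAFT_12119, COCSUDRAFT_12451, COCSUDRAFT_18441 and COCSUDRAFT_64433 it was 0.13 to 0.32, lowest between COCSUDRAFT_18441 and COCSUDRAFT_12119. Between COCSUDRAFT_48328 and the others it was 1.80 to 2.11. All profiles come from the same 6 libraries, so these values are descriptions without a test.

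Among 7799 other genes with a mean of at least 10 CPM, a supplementary sheet of called genes gave names for 212. The nearest named genes to COCSUDRAFT_48328 were COCSUDRAFT_23522, matched to a peroxiredoxin, at 0.27, and COCSUDRAFT_52967, a clavaminate synthase-like protein in the study's text that the sheet matched to a gibberellin oxidase, at 0.32. The prior count of 2 shrinks the profile of COCSUDRAFT_48328, with its few AG counts, and so affects this likeness. Its fitted log2 fold change was 6.35, beside 4.80 for COCSUDRAFT_23522 and 5.05 for COCSUDRAFT_52967. COCSUDRAFT_23522 had its highest level in CG 1 as well, at 1913 CPM against 1087 and 1159 CPM in CG 2 and CG 3. The nearest named gene to both COCSUDRAFT_12451 and COCSUDRAFT_64433 was COCSUDRAFT_54553, a ferredoxin-NADP+ reductase, at 0.12 and 0.15. For COCSUDRAFT_18441 it was COCSUDRAFT_49139, matched to an ascorbate peroxidase, at 0.15, and for COCSUDRAFT_12119 it was COCSUDRAFT_52886, matched to a sodium/bile acid symporter, at 0.23. By likeness to COCSUDRAFT_12119 that gene ranked only 176th in the pool. COCSUDRAFT_18441, COCSUDRAFT_64433 and COCSUDRAFT_12451 would stand 23rd, 481st and 559th. Many other genes were thus nearer to COCSUDRAFT_12119 than some of its fellow members, and nearness was not particular to the members.

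The deposited counts of COCSUDRAFT_12119 were fractional in 3 of the 6 libraries and those of COCSUDRAFT_18441 in 5, while those of COCSUDRAFT_48328, COCSUDRAFT_12451 and COCSUDRAFT_64433 were whole. Among the fatty acid synthesis genes, the counts of COCSUDRAFT_49000 were fractional in all 6 libraries and those of COCSUDRAFT_47508 in 4. What made counts fractional is not given in the sources used here, and how many reads any of these genes shares with another was not tested. Reads of both strands were counted together, so reads of an antisense or overlapping gene cannot be told apart from those of a member.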

How the data were processed

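The 6 DGE libraries (CG and AG, 3 each) were compared from 1 table. Per the study's methods, the authors mapped clean reads with Bowtie, whose version is not given in the sources used here, to C-169 transcripts of Phytozome with 1 mismatch allowed, and counted both strands together. The deposited counts were handled as estimated counts, since 7.92% of the values, in 1202 genes, differed from a whole number by more than 0.01. The authors also deposited RPKM per library, used here as given. Their columns of group means, log2 fold changes and FDR were not used.

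Counts were rounded and fitted in R 4.3.3 with edgeR 4.0.16 (TMM, filterByExpr, robust quasi-likelihood test, CG against AG, Benjamini-Hochberg over 8637 genes). Genes were called at an adjusted p under 0.05. Standard errors are the log2 fold change divided by the square root of the F statistic. Shares and ratios (counts plus 0.5) were compared by exact permutation tests over libraries. Profiles used log2 CPM with a prior count of 2. The edgeR fit was tested on simulated data. Alternatives were other scalings and filters, a replicate block, unrounded counts, leaving out each library, DESeq2 1.42.0 and limma 3.58.1 on log2 RPKM plus 1 or 0.1. Shares, ratios and plots used Python 3.11.15 (scipy 1.17.1, matplotlib 3.10.9, numpy 2.4.6, pandas 2.3.3).

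The members, the lists and the tests were chosen with earlier results of these data known. Genes named are the 5 members, the 6 fatty acid synthesis genes with identifiers in the study and the genes nearest in profile to each member, named from the study's sheet of enriched terms. A search for homologues by protein similarity, lists of elongation enzymes by product name and a search of promoter motifs had been planned and were not run, because the reference used here (Coccomyxa subellipsoidae v2.0, matched to 9372 of 9409 genes) gives locus tags and positions but no sequences or products. The number in the table was matched to the number that ends the locus tag. The study names no genome version, so gene order is used without coordinates.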

Additional observations from a re-analysis of the deposited data

How the results depend on the processing

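The direction of each of the 5 genes held in all 16 alternative fits, and COCSUDRAFT_48328, COCSUDRAFT_12451 and COCSUDRAFT_64433 also kept their calls. The number of members that rose was 5 in the 9 fits with other scalings, filters, unrounded counts, DESeq2 or limma, where 2306 to 2595 of all genes rose. It was 4 with the replicate block, and 3 to 5 with 1 library left out, beside 21.0 to 34.0% of genes. The study's strict criteria were met by 1 member in edgeR (7.95% of genes), 4 in DESeq2 (13.7%), and 0 to 5 with 1 library left out (1.44 to 15.7%), and its less strict ones by 4. Both tallies were chosen after seeing the data. Same-numbered libraries of CG and AG are not said to be paired, and their deviations correlated at -0.0343, 0.0377 and -0.0509, so the replicate block is only an alternative: in it the log2 fold change of COCSUDRAFT_12119 was 0.89 (adjusted p = 0.0540), that of COCSUDRAFT_47508 was 1.18 (adjusted p = 0.0597), and 2098 genes rose in place of 2355. With 1 library left out, log2 fold changes were 0.77 to 1.24 for COCSUDRAFT_12119, 0.91 to 1.30 for COCSUDRAFT_18441 and 1.33 to 1.85 for COCSUDRAFT_64433. They were 1.52 to 1.98 for COCSUDRAFT_12451 and 5.87 to 7.06 for COCSUDRAFT_48328. In those fits 1 to 6 of the fatty acid synthesis genes rose, beside 21.0 to 34.0% of genes. The log2 fold change of COCSUDRAFT_27575 was 0.26 with all libraries, 0.65 without CG 1 and -0.024 without CG 3. The difference in the log2 ratio of COCSUDRAFT_12451 to COCSUDRAFT_64433 was 0.20 on counts and -0.20 on RPKM plus 1, where the added 1 is large beside the level of COCSUDRAFT_12451. The homologue alternatives were not run. Depth limits COCSUDRAFT_48328 in AG, with 3 counts, and COCSUDRAFT_12451, with 61 counts in CG and 23 in AG.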

Other observations

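Of the members, COCSUDRAFT_12451, COCSUDRAFT_64433 and COCSUDRAFT_12119 lie on the same scaffold of the reference assembly, and COCSUDRAFT_48328 and COCSUDRAFT_18441 lie on a scaffold each. Between COCSUDRAFT_12451 and COCSUDRAFT_64433 there are 29 genes, of which 4 rose, 3 fell, 21 did not pass edgeR's quasi-likelihood test at an adjusted p under 0.05 and 1 was not tested. Between COCSUDRAFT_64433 and COCSUDRAFT_12119 there are 7 genes, of which 0 rose, 1 fell and 6 did not pass. Of all 8637 genes tested, 27.3% rose and 2157 genes fell. Of the 10 genes directly next to the 5 members, 2 rose, 1 fell, 6 did not pass and 1 was not tested. The 2 that rose were COCSUDRAFT_57161, next to COCSUDRAFT_48328, and COCSUDRAFT_64439, next to COCSUDRAFT_12119, with log2 fold changes of 0.43 and 0.73 (adjusted p of 0.0165 and 0.00194 from the same edgeR test). These neighbours were looked at after the values of the members had been seen, and the files do not pair them with names.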
